A study of Drosophila melanogaster with 15 samples.

Results

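The genes mRpL45, mRpL46, mRpL51 and Rlc1 (now named mRpL47), which encode proteins of the mitochondrial ribosome, were followed across whole Drosophila melanogaster embryos of 3 genotypes. They were taken by gene symbol and public ID from the authors' table of 149 rows, in which they hold 5 rows. Both rows of Rlc1 (public IDs CG9378-RB and CG9378-RA) carry the same values and stand for 1 probe set, so that the 4 genes were read by 4 of the 18769 probe sets for genes on the array. The embryos were pri -/- (allele pri1 in the study), svb -/- (allele svbR9) or wt, aged 13 to 15 h after egg laying, and mutants were picked by hand by means of GFP balancer chromosomes. Each genotype had 5 samples, each of 200 embryos and each read on its own Affymetrix Drosophila Genome 2.0 array, so precision is limited by there being 15 arrays in all. The sex of the embryos and the background of the wt stock were not given in the sources used here.

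The mitochondrial ribosome translates the few proteins encoded in mitochondrial DNA, which are core subunits of the respiratory chain and of the ATP synthase. Its own proteins are encoded in the nucleus, made in the cytosol and imported. All 4 genes encode proteins of its large subunit. The gene pri encodes small peptides that convert the transcription factor Svb, the regulator of epidermal trichomes, from a repressor into an activator, and svb encodes that factor. The study compared both mutants with wt to find genes that act downstream of Svb, and it chose the genes of its table on these same arrays, as lower in both mutants, with a difference of more than 2-fold between genotypes as a criterion. The direction of the 4 genes against wt followed from that choice. So did a fall in pri of more than 2-fold against both svb and wt. The tests of pri and svb below, including pri against svb, therefore describe the 4 genes and are no independent evidence. The choice was not made on ratios between the genes or on deviations of single arrays, but neither is wholly separate from it. A log2 ratio compared between genotypes is the difference of the fold changes of both genes, and fold changes entered the choice. The study also set a limit on the false discovery rate for pri, which depends on the spread between arrays. Its supplementary list marks none of the 4 genes as tested by in situ hybridization. Nor does it give any of them its refined Svb binding motif or a nearby Svb-bound region at the later stage examined. An earlier-stage bound region is marked for all but mRpL46. No epidermal expression is listed for mRpL45, mRpL46 and mRpL51, and for Rlc1 it was not determined.

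The signals are linear MAS 5.0 intensities, brought by the authors to a common trimmed mean on all arrays. They have no unit beyond that scaling, and levels of different genes are not compared because each probe set has its own brightness. A probe set was tested if the highest of its 3 genotype means reached 5 on the log2 scale, a signal of 32, and 8631 did. All 4 genes passed in every genotype, since their lowest single signal was 53.5. Neither svb nor pri could be named among the probe sets, so that the labels had no check against the mutated genes. The Svb target shavenoid (sha), which is in the same table, had signals of 7.91 ± 1.097 in pri mutants, 29.7 ± 4.86 in svb mutants and 121 ± 15.6 in wt (SD, n = 5). The array of svb replicate 4 had the lowest median signal (9.82, against 12.4 to 17.5 on the other 14 arrays) and a quality weight of 0.214.

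In pri mutants, mRpL45 was at 22.6% of its wt signal, the largest fall of the 4 genes. The human counterpart of mRpL45 lies beside the tunnel through which the new protein leaves the ribosome and anchors the ribosome to the inner membrane. Its signals on the arrays of pri replicates 1 to 5 were 54.6, 53.5, 83.7, 61.9 and 68.3. On the svb arrays they were 272, 291, 259, 342 and 223, and on the wt arrays 286, 311, 233, 318 and 279. All 5 pri arrays lay far below both other genotypes, which overlapped each other. The means were 64.4 ± 12.3 in pri mutants, 277 ± 44.2 in svb mutants and 285 ± 33.6 in wt (SD, n = 5), and the svb mean was 97.2% of wt. In the fit across all probe sets mRpL45 was 4.47-fold lower in pri than in wt (95% interval 3.57 to 5.60; limma adjusted p = 4.02e-08) and 4.32-fold lower in pri than in svb (3.45 to 5.42; limma adjusted p = 4.37e-08).

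The gene mRpL51, whose human counterpart is a large-subunit protein with no bacterial homologue, was at 39.3% of wt in pri mutants. Its signals on pri replicates 1 to 5 were 132, 157, 239, 96.5 and 130. They were 314, 407, 504, 477 and 189 on the svb arrays and 444, 373, 241, 475 and 387 on the wt arrays. The highest pri array (replicate 3, at 238.7) stayed just below the lowest wt array (replicate 3, at 241.1), whereas it lay above the lowest svb array (replicate 5). The means were 151 ± 53.6 in pri mutants, 378 ± 129 in svb mutants and 384 ± 90.1 in wt (SD, n = 5). The fall was 2.60-fold against wt (95% interval 1.72 to 3.91; limma adjusted p = 0.00122) and 2.48-fold against svb (1.65 to 3.74; limma adjusted p = 0.00128).

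The gene Rlc1 encodes the counterpart of human MRPL47, which is related to the bacterial ribosomal protein L29 of the tunnel exit. Its signals on pri replicates 1 to 5 were 88.1, 94.3, 166, 56.3 and 86.3. They were 176, 225, 284, 321 and 136 on the svb arrays and 274, 275, 113, 313 and 237 on the wt arrays. The pri arrays overlapped both other genotypes, in each case only through pri replicate 3 on one side and through wt replicate 3 or svb replicate 5 on the other. The means were 98.2 ± 40.6 in pri mutants, 229 ± 76.0 in svb mutants and 242 ± 77.2 in wt (SD, n = 5), and the pri mean was 40.5% of wt. The study's supplementary list gives Rlc1 once, at a higher percentage of wt in pri mutants and a lower one in svb mutants than found here. For mRpL45, mRpL46 and mRpL51 its percentages are the same as here. The reason for the difference in Rlc1 is not known. Rlc1 was 2.48-fold lower in pri than in wt (95% interval 1.57 to 3.93; limma adjusted p = 0.00367) and 2.36-fold lower in pri than in svb (1.49 to 3.74; limma adjusted p = 0.00428).

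The smallest fall was that of mRpL46, which encodes a large-subunit protein specific to mitochondria in humans. Its signals on pri replicates 1 to 5 were 54.0, 59.1, 102, 55.8 and 96.3. They were 151, 203, 174, 170 and 97.6 on the svb arrays and 215, 149, 62.7, 223 and 207 on the wt arrays. The array of wt replicate 3 was below 2 of the pri arrays (replicates 3 and 5), and svb replicate 5 was below pri replicate 3. The means were 73.4 ± 23.6 in pri mutants, 159 ± 39.1 in svb mutants and 172 ± 67.5 in wt (SD, n = 5), and the pri mean was 42.8% of wt. The fit gave a 2.22-fold fall against wt (95% interval 1.38 to 3.55; limma adjusted p = 0.00976) and a 2.19-fold fall against svb (1.37 to 3.51; limma adjusted p = 0.00891).

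**Figure D1:**
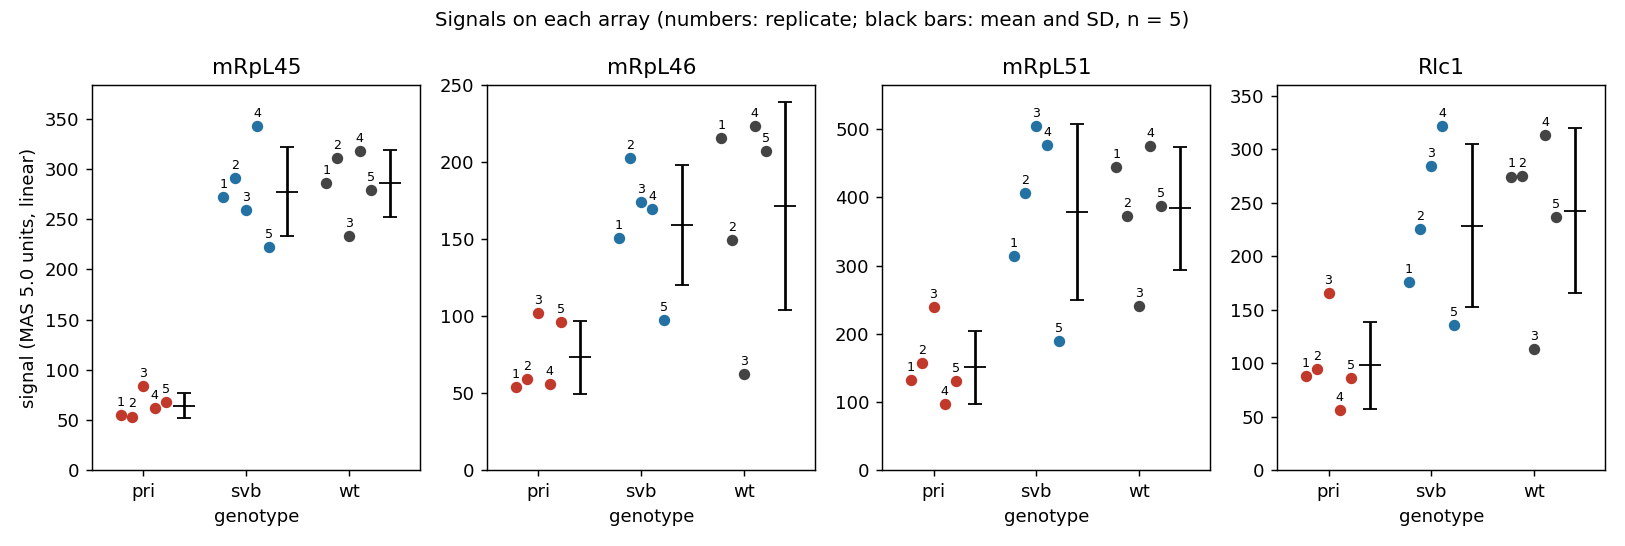
Signal (linear, MAS 5.0 units, 1 axis per gene) of the 4 genes on each of the 15 arrays, by genotype, with the replicate number beside each point and the mean and SD in black (n = 5). The 5 pri arrays of mRpL45 lie between 53.5 and 83.7, below all svb and wt arrays, whereas those of mRpL46 and Rlc1 overlap wt replicate 3.

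All 4 genes were thus called lower in pri than in wt, where 23.1% of the tested probe sets were called lower, and all 4 lower in pri than in svb, where 24.7% were. The choice of the table fixed the direction and a fall of more than 2-fold in both comparisons. Both comparisons use the same pri arrays, and the comparisons of the 2 mutants with wt share the wt arrays. The median log2 fold change of the 4 genes was -1.34 against wt and -1.28 against svb, beside -0.04 and -0.03 over all tested probe sets. No overlap between all 5 pri and all 5 wt arrays was found for mRpL45 and mRpL51 only, 2 of 4 genes, and 14.2% of the tested probe sets were lower in pri in that way. Against svb, 1 of 4 genes (mRpL45) did not overlap, with 13.8% of the tested probe sets. Ranked by the fall against wt among the 134 named genes of the table, mRpL45 stood at place 42, mRpL51 at 90, Rlc1 at 99 and mRpL46 at 126, so that mRpL46 was among the named genes with the smallest falls. In whole embryos, fewer cells of a type that expresses these genes and less RNA per cell cannot be told apart.

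In svb mutants none of the 4 genes was called. The log2 fold changes against wt were -0.05 for mRpL45 (95% interval -0.37 to 0.28; limma adjusted p = 0.923), -0.07 for mRpL51 (-0.66 to 0.52; 0.941), -0.07 for Rlc1 (-0.74 to 0.59; 0.945) and -0.02 for mRpL46 (-0.70 to 0.66; 0.988). None had an unadjusted p under 0.05, 0 of 4 did not overlap, and the background was 4.00% of tested probe sets called lower and 4.06% lower without overlap. These intervals leave room for a fall of 1.29-fold for mRpL45 and of 1.58-fold to 1.67-fold for the others, so that the arrays bound mRpL45 most tightly. Mean signals in svb mutants were 98.5% of wt for mRpL51, 94.3% for Rlc1 and 92.7% for mRpL46. With 1 array left out, the log2 fold change turned positive in 1 of the 15 fits for mRpL45, 2 for mRpL51, 3 for Rlc1 and 4 for mRpL46, without a call in any of them. The fits that left out 1 of the 5 pri arrays could not change these fold changes.

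**Figure D2:**
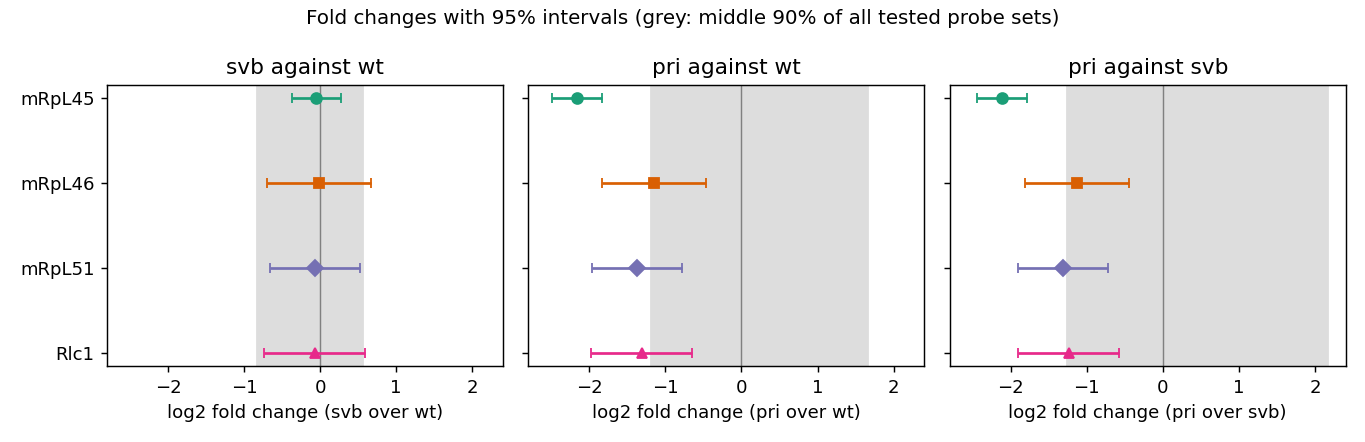
Log2 fold changes of the 4 genes with 95% intervals from the limma fit, for svb over wt, pri over wt and pri over svb; the grey band spans the 5th to 95th percentile of all 8631 tested probe sets. The intervals include 0 for svb against wt and lie below 0 in both comparisons of pri, with mRpL45 at -2.16 and -2.11.

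In pri mutants the estimated fall was larger for mRpL45 than for the other genes, and some of these differences passed a test, each narrowly. The log2 ratio of 2 genes was taken on each array and compared between genotypes, for all 6 pairs in 3 comparisons. This cancels a constant factor of brightness of each probe set but not an added background. With an offset of 16, the log2 fold change in pri against wt moved from -2.16 to -1.91 for mRpL45 and from -1.38 to -1.28 for mRpL51. Relative to mRpL46, the signal of mRpL45 was 0.50-fold in pri mutants what it was in wt, with log2 ratios from -0.50 to 0.15 on the pri arrays and 0.41 to 1.89 on the wt arrays, which did not overlap (two-sided exact permutation test, p = 0.00794 and, over 18 comparisons, adjusted p = 0.0476). The log2 ratio of 1.89 was that of wt replicate 3. Without this array, the log2 fold changes in pri against wt were -2.23 for mRpL45 and -1.48 for mRpL46. With all arrays they were -2.16 and -1.15, so the size of the difference between these genes depended on wt replicate 3. With 5 arrays on each side no smaller p than 0.00794 is possible. The adjusted p is just under 0.05 and depends on other comparisons having this same lowest p. Relative to mRpL51 it was 0.58-fold, with log2 ratios from -1.56 to -0.64 in pri and -0.63 to -0.05 in wt (exact permutation test, p = 0.00794; adjusted p = 0.0476). These ratios touched at the margin, -0.64 in pri against -0.63 in wt. Relative to Rlc1 it was 0.56-fold, and this difference did not pass (exact permutation test, p = 0.0238; adjusted p = 0.0714).

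Against svb mutants, mRpL45 fell further than mRpL46 as well (ratio 0.51-fold in pri; exact permutation test, p = 0.00794, adjusted p = 0.0476). The ratios to mRpL51 and Rlc1 did not pass there (0.57-fold and 0.55-fold; exact permutation test, p = 0.0238 and adjusted p = 0.0714 for each). The other 3 pairs, among mRpL46, mRpL51 and Rlc1, differed between pri and wt by -0.06 to 0.23 on the log2 scale (exact permutation test, adjusted p at least 0.905), and no pair differed between svb and wt by more than 0.06 in size (adjusted p = 0.944 for all 6). The steadiest ratio was that of mRpL51 to Rlc1, with an SD on the log2 scale of 0.11 in pri, 0.17 in svb and 0.24 in wt, whereas mRpL51 alone had SDs of 0.48, 0.58 and 0.38.

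**Figure D3:**
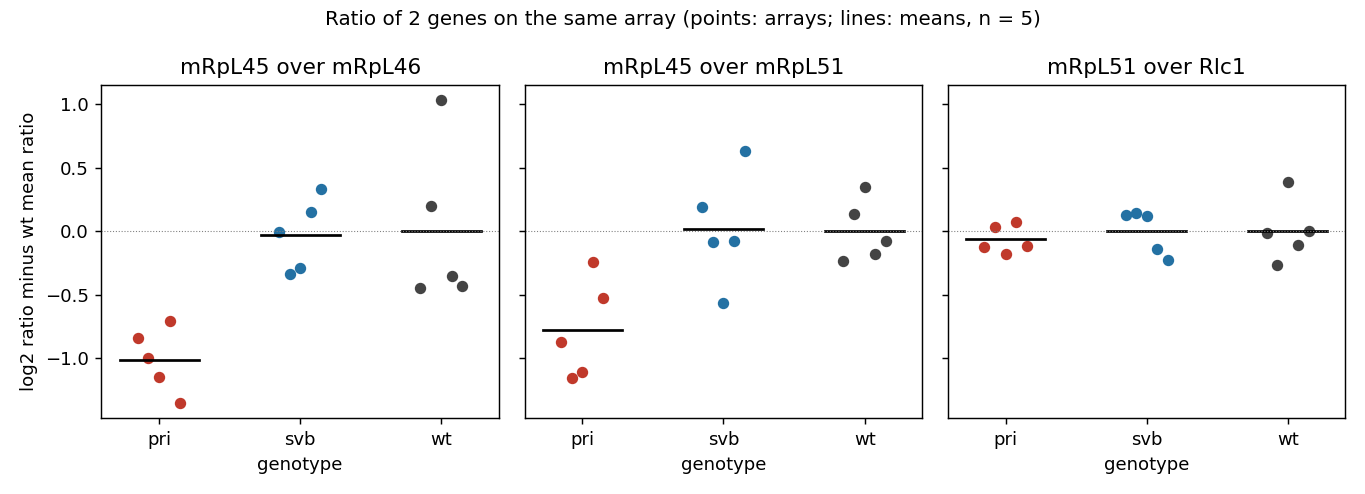
Log2 ratio of 2 genes on each array, minus the mean wt ratio, by genotype (points are arrays, lines are means, n = 5). The ratio of mRpL45 to mRpL46 is lower on all 5 pri arrays than on any svb or wt array, whereas that of mRpL51 to Rlc1 has means that differ by 0.07 at most.

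Within a genotype, the 4 genes shared some of their highest and lowest arrays, in 4 of 6 cases. The array of wt replicate 3 was the lowest of its genotype for all 4 genes and wt replicate 4 the highest for all 4. Likewise svb replicate 5 was the lowest svb array and pri replicate 3 the highest pri array for all 4. The other extremes differed between genes: the lowest pri array was replicate 2 for mRpL45, replicate 1 for mRpL46 and replicate 4 for mRpL51 and Rlc1, and the highest svb array was replicate 4 for mRpL45 and Rlc1, replicate 2 for mRpL46 and replicate 3 for mRpL51. On pri replicate 5 the genes deviated to opposite sides, mRpL46 by 0.45 and mRpL51 by -0.15 on the log2 scale. Averaged over the genes, wt replicate 3 was 0.81 below the wt mean on the log2 scale, svb replicate 5 was 0.64 below the svb mean and pri replicate 3 was 0.63 above the pri mean. Each overlap of pri with another genotype given above involved one or more of these 3 arrays. In a fit with array weights, wt replicate 3 had a weight of 0.434, the second lowest of the 15 after svb replicate 4.

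The deviation of each array from the mean of its genotype was correlated between genes over the 15 arrays, which removes the differences between genotypes. The closest pair was mRpL51 and Rlc1, with a Pearson r of 0.946 and a Spearman rho of 0.939 (permutation test within genotypes, 100000 resamples, p = 2e-05 and 4e-05; adjusted p = 0.00012 and 0.00024 over 6 pairs). The other 5 pairs had r from 0.694 for mRpL45 and mRpL51 to 0.799 for mRpL46 and Rlc1, and the highest adjusted p of any pair was 0.011 for r and 0.0271 for rho (permutation test). For each pair, r was also taken without the 2 arrays on which 1 of its genes lay farthest from that gene's median deviation. It then lay between 0.538 and 0.952. Extremes of the other gene were kept, and the arrays left out could differ between pairs. Within single genotypes the r of mRpL51 and Rlc1 was 0.989 in pri, 0.956 in svb and 0.966 in wt, from 5 arrays each.

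Such deviations were common on these arrays. Of the other 8627 tested probe sets, 8.20% had deviations that correlated with the mean deviation of the 4 genes at r of 0.7 or more, and 5.82% at -0.7 or less. Among the other 130 named genes of the table, 28.5% reached 0.7. As many as 60 other probe sets were closer to mRpL51 than Rlc1 was, 251 were closer to mRpL45 than mRpL46 was, and 406 were closer to mRpL45 than mRpL51 was. With the pair itself counted, 0.718% of tested probe sets were at least as close to mRpL51 as Rlc1 was. The highest such share was 8.97%, for those at least as close to mRpL51 as mRpL45 was. The 4 genes share arrays, RNA samples and scaling, and the part of these in the shared deviations was not tested. The ratio of 3' to 5' signal of the control probe sets for eIF-4a, a sign of RNA quality, was 8.54 on wt replicate 3 (5.98 to 10.3 on the other wt arrays), 6.48 on svb replicate 5 (5.43 to 6.40 on the others) and 6.19 on pri replicate 3 (5.01 to 6.71 on the others). The same ratio for GAPDH was 3.22 on wt replicate 3 (2.49 to 3.84 on the other wt arrays), 2.63 on svb replicate 5 (2.38 to 2.52 on the others) and 2.44 on pri replicate 3 (2.78 to 2.96 on the others). For GAPDH, pri replicate 3 was thus the lowest pri array, and by both ratios svb replicate 5 was the highest svb array. The median signal of these 3 arrays was 12.8, 12.4 and 17.5. Between genotypes, the highest eIF-4a ratio was 10.3 in wt, 6.48 in svb and 6.71 in pri. For GAPDH it was 3.84, 2.63 and 2.96. The lowest ratios were closer, 5.98, 5.43 and 5.01 for eIF-4a and 2.49, 2.38 and 2.44 for GAPDH. The part of this in the comparisons with wt was not tested.

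**Figure D4:**
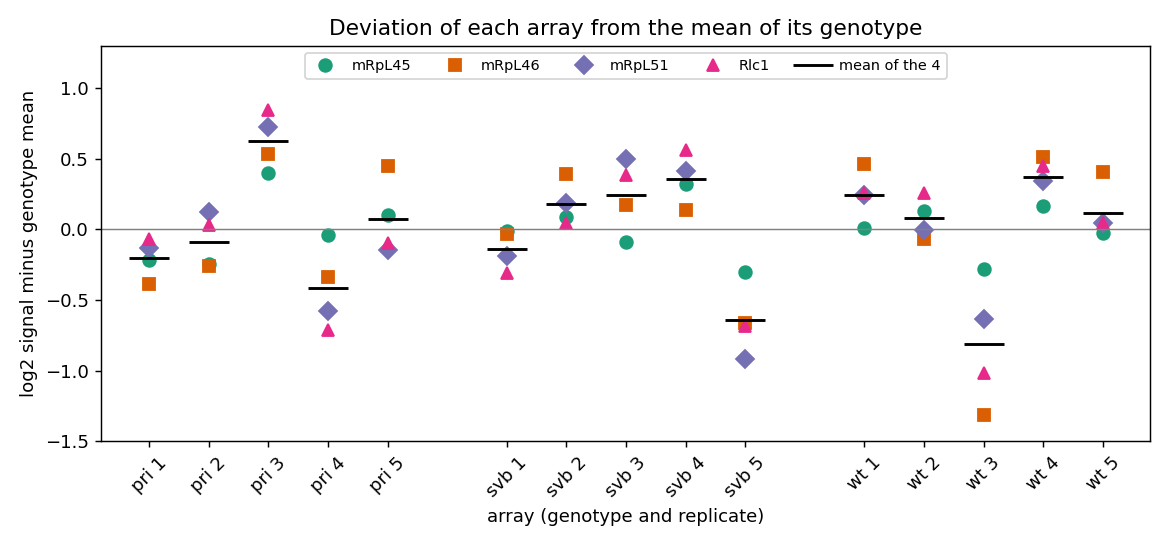
Deviation of each array from the mean of its genotype (log2 signal) for the 4 genes and their mean, with arrays on the horizontal axis. All 4 genes are low on wt replicate 3 and svb replicate 5 and high on pri replicate 3, with mRpL45 deviating less than the other 3 genes on each of these arrays.

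The spread itself differed among the genes. The pooled SD within genotypes was 0.23 on the log2 scale for mRpL45, smaller than the median of 0.30 over the tested probe sets, and 20.4% of these had a smaller SD. It was 0.49 for mRpL51, 0.55 for Rlc1 and 0.57 for mRpL46, above 82.2%, 86.9% and 87.6% of the tested probe sets. The gene with the largest fall in pri mutants was the one with the least spread.

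Among the other named genes of the table, those most like each of the 4 in log2 signal over the 15 arrays were then listed. Since the table was chosen for 1 pattern across the genotypes, high correlations were built into this search of 130 genes, and the values describe likeness only. For mRpL45 they were Mvd (r = 0.990), Hmgs (0.989) and CG3842 (0.983). Mvd and Hmgs encode enzymes of the mevalonate pathway, and Mvd had signals of 59.4 ± 8.48 in pri mutants, 389 ± 60.4 in svb mutants and 469 ± 72.3 in wt (SD, n = 5). By deviations within genotypes alone, their r with mRpL45 was 0.775, 0.773 and 0.737, at places 10, 11 and 21.

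For mRpL51 the closest were Ufc1 (r = 0.990), which encodes the conjugating enzyme of the ubiquitin-like protein UFM1, CG30423 (0.985) and crok (0.985), which encodes a Ly6 protein of septate junctions. For Rlc1 they were CG30423 (0.991), the proteasome subunit gene Prosalpha4 (0.983) and crok (0.974). These kept their likeness in the deviations within genotypes, where Ufc1 had r of 0.984 with mRpL51 and CG30423 had 0.979 with Rlc1. For mRpL46 the closest were Obp99c (0.963), of the odorant-binding protein family, CG6180 (0.959) and alpha-PheRS (0.947), a subunit of the phenylalanyl-tRNA synthetase. Only 2 named genes were closer to Rlc1 than mRpL51 was, against 105 that were closer to mRpL45 than Rlc1 was.

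No other gene of the mitochondrial ribosome could be followed. Of the 76 protein-coding genes on a list of this ribosome's proteins and associated factors in RefSeq, 4 could be named here, and these are the 4 genes described. None of 89 genes of the cytosolic ribosome, none of 87 nuclear genes of the respiratory chain and ATP synthase, and none of 9 muscle, 6 midgut and 4 nervous system markers had a named probe set, because names were given only for genes that the study had selected. Of 7 epidermal and cuticle markers 4 could be named (sha, m, mwh and f), all of them in the table. The 4 genes therefore do not speak for the mitochondrial ribosome as a whole. None of the 6 protein-coding neighbours of each gene in RefSeq (3 on each side) was among the named genes of the table.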

How the data were processed

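The authors extracted signals from Affymetrix Drosophila Genome 2.0 arrays with MAS 5.0 in Expression Console 1.1 and deposited intensities on a linear scale, scaled to the same trimmed mean on every array. This scaling assumes equal total signal between genotypes, and MAS 5.0 is unstable for dim probe sets. Neither detection calls nor raw scans entered the work, no batch is named, and the sources used here give no annotation build.

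Groups came from sample titles. The table's rows were joined to the deposited value table where signals matched on each of the 15 arrays (tolerance 1e-05), and current symbols came from RefSeq by locus tag or synonym. In all, 183 control probe sets were left out and 10138 dim ones were not tested. Log2 signals without an offset were fitted with limma 3.58.1 in R 4.3.3 (3 genotype means, 15 arrays, eBayes with a trend), with Benjamini-Hochberg adjustment over 8631 probe sets within each comparison and a threshold of 0.05. The fit was tried on simulated arrays with independent noise for each probe set. It recovered 68 to 73 of 100 2-fold falls and 93 to 98 of 100 4-fold falls per comparison, with 4 to 14 false calls. The simulation held no deviations shared between probe sets, so it does not cover those of these arrays.

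All members were named, and for each the 3 named genes of the table with the highest correlation over 15 arrays. The members and lists were chosen with earlier results of these data known. Whether samples of a genotype came from separate collections is known only from the study's word that they were independent, and p-values measure the spread between these samples. As alternatives, array weights, a replicate block, leaving out each array, an offset of 16, a filter at 6.5 or none, median centring, quantile normalisation and eBayes without a trend were tried. Protein and promoter features were planned but not analysed here.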

Additional observations from a re-analysis of the deposited data

Results flagged for a closer look

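One signal stood apart within its genotype. Rlc1 had a signal of 113 on the array of wt replicate 3, against 237 to 313 on the other wt arrays. On the log2 scale its gap to the next array was 0.726 of the range of the wt arrays, above Dixon's limit for 5 samples. This was 1 flag among 12 groups of 5 arrays, and chance flags about 1 in 20 groups. The gaps of mRpL51 and mRpL46 on the same array were 0.643 and 0.683 of their ranges, below that limit. Without wt replicate 3, Rlc1 was lower in pri than in wt by 1.57 on the log2 scale (limma adjusted p = 0.000641).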

How the results depend on the processing

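In all 3 comparisons the number of the 4 genes called was the same under all 23 alternatives, 0 for svb against wt and 4 for both comparisons of pri. The direction in pri held for every gene under each of these. The ratio tests, the overlap counts and the pair correlations were not repeated under these alternatives. The log2 fold change of mRpL46 against wt, the weakest, ranged from -1.37 to -1.001 under other processing and from -1.48 (without wt replicate 3) to -1.02 (without wt replicate 4), and its highest adjusted p was 0.0296 (limma, without wt replicate 4). For mRpL45 it ranged from -2.22 to -1.91 under other processing, with the smallest fall under an offset of 16, and from -2.26 (without pri replicate 3) to -2.10 (without pri replicate 2). With the replicate block, 0, 4 and 4 genes were again called (highest limma adjusted p in pri against wt 0.0246), and the probe sets called lower in pri than in wt numbered 1843. Replicate numbers did not pair the arrays, since deviations of same-numbered arrays correlated at over 0.1 in 7 of 15 pairs (-0.61 to 0.37), and an array resembled most its own number in 8 of 30 searches. Counts over all tested probe sets in svb against wt were 569 lower and 348 higher with array weights and 218 and 103 with the filter at 6.5, which tested 6128 probe sets, against 345 and 174; they were 231 and 124 without wt replicate 2. Over deviations alone, the likeness of Mvd, Hmgs and CG3842 to mRpL45 dropped to 0.775, 0.773 and 0.737. Signals near the filter level of 32 are the least certain, and the nearest to it among the 4 genes was 53.5 (mRpL45, pri replicate 2).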
